A study of Oryza sativa and Triticum aestivum and Oryza sativa Japonica Group with 26 samples.

Results

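Monomethylated and trimethylated lysine 4 of histone H3 (H3K4me1 and H3K4me3) were compared along the genome of HHZ (Huanghuazhan), an indica rice cultivar, in chromatin from young panicles of field-grown plants. The comparison used the 3 HHZ libraries whose labels name these marks, of 26 samples in the whole series. These were H3K4me1 replicates 1 and 2 and H3K4me3 replicate 1. Each was made by chromatin immunoprecipitation from formaldehyde-fixed tissue and sequenced as single reads of 51 bp, and each was deposited as a list of peaks, the stretches where reads piled up. The domains of the single HHZ library for H3K36me3, trimethylated lysine 36, served as the frame in which the order of both marks was read. Input chromatin of HHZ (1 library, sequenced without enrichment, although its label also lists the H3K27me3 antibody), H3K27ac (2 libraries) and H3K27me3 (3 libraries) gave the background measured the same way. The same marks from young panicles of JZ1560, a japonica cultivar (2 H3K4me1 and 2 H3K4me3 libraries and 1 input), were used for a comparison between cultivars. No genotype other than the cultivar, no treatment and no plant age is labelled, and nothing labelled says whether panicles were pooled or whether replicates came from separate plants. No RNA of HHZ was analysed here, so the tissue label was not checked against expressed markers.

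Both marks sit on the same amino acid, and a single histone tail can carry one or the other at that position, not both. In plants H3K4me3 is laid down around the starts of active genes by enzymes that work beside the initiating polymerase. H3K4me1 lies further inside transcribed genes, and H3K36me3 is written behind the elongating polymerase and runs through the body of active genes. H3K27me3 is the Polycomb mark of silenced genes, and H3K27ac marks active promoters. Peak lists carry no strand, and no annotation on the coordinates of the files was used here, so directions are given as left and right along the chromosome or relative to H3K36me3, never as upstream or downstream of a gene.

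The lists were similar in number and differed in shape. H3K4me3 had 18741 peaks with a median width of 1525 bp and a total of 30.1 Mb. H3K4me1 had 20280 peaks (median 1114 bp, 27.5 Mb) in replicate 1 and 20281 peaks (median 1079 bp, 26.9 Mb) in replicate 2. H3K36me3 formed 16344 broader domains with a median of 3329.5 bp and 62.5 Mb in all. Input also gave 22976 peaks over 46.1 Mb, so regions that any chromatin library recovers make up a part of such lists. Each peak carries the peak caller's score, which started at 50 in every list. A score of at least 100 was reached by 86.3% of H3K4me3 peaks and by 45.8% and 44.6% of H3K4me1 peaks, and the scores are not known to be comparable between lists.

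The H3K4me1 replicates were close to each other. Bases common to both replicates made up 0.678 of the bases marked in at least one of them (the Jaccard index), and 84.5% of replicate 1 peaks met a replicate 2 peak. Among 12894 peaks paired one to one, facing edges differed by a median of 49 bp. Replicate agreement followed the score, since 97.9% of replicate 1 peaks of score 100 or more met replicate 2, against 73.3% of weaker ones. Both edges were identical in 1579 peaks of the replicates, 7.79% of the shorter list. The JZ1560 H3K4me1 replicates shared 79 such peaks, the HHZ H3K27ac replicates shared 3614, and 113 pairs of lists from different groups shared at most 3. Whether the HHZ replicates share reads or material was not tested, and the SD over them may therefore hold technical spread only. Counting intervals below are 95% Wilson intervals and cover counting error only.

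H3K4me1 touched the rims of H3K4me3 peaks and seldom reached their centres. An H3K4me1 peak overlapped 37.6% of H3K4me3 peaks in replicate 1 (7053 peaks, interval 36.9% to 38.3%) and 36.7% in replicate 2 (6883 peaks, 36.0% to 37.4%), which gives 37.2% ± 0.64 (SD, n = 2). Where they overlapped, the shared stretch had a median of 569 bp in replicate 1 and 553 bp in replicate 2. That was a median of 33.1% and 32.5% of the H3K4me3 peak. At least 1 edge lay under H3K4me1 in 35.8% and 34.8% of all H3K4me3 peaks, whereas the centre did in 7.19% and 6.09%. H3K4me3 peaks wholly inside an H3K4me1 peak numbered 58 and 48. Overlap of at least 50% of the H3K4me3 peak was found for 6.23%, and the share with any overlap was 24.3% among peaks of score 100 or more and 20.6% without peaks on input.

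Input and the other marks met H3K4me3 in another way. Input overlapped 52.8% of H3K4me3 peaks and covered the centre of 39.6% of them. H3K36me3 covered the centre of 83.7%, and H3K27ac did so for 14.8% and 13.5% in its replicates, although H3K27ac overlapped fewer H3K4me3 peaks (20.8% and 19.7%) than H3K4me1 did. In bases, H3K4me1 covered H3K4me3 peaks at 1.85 and 1.79 times its share of the whole reference. The same ratio was 3.27 for input, 4.12 and 3.87 for H3K27ac, 5.05 for H3K36me3, and 0.475 and 0.538 for H3K27me3 replicates 1 and 2. H3K27me3 replicate 3 stood apart from the other 2 at 3.90 and overlapped 61.6% of H3K4me3 peaks against 10.9% and 14.1%, so H3K27me3 values are given per replicate. Its peaks resembled those of input, with a median width of 1572 bp and score of 93.8, against 1681 bp and 91.875 for input. Replicates 1 and 2 had medians of 2665 bp and 2753 bp, and scores of 712.76 and 724.7. Whether replicate 3 was enriched for H3K27me3 was not tested, and its values below are read with this limit.

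The distance between the marks depended on which mark it was measured from. H3K4me3 peaks without overlap had their nearest H3K4me1 peak at a median of 4201 bp in replicate 1 and 4143 bp in replicate 2, 4172 bp ± 41.0 (SD, n = 2), measured between facing edges. The quartiles in replicate 1 were 1088.75 bp and 13200.8 bp. Overlap or a gap of at most 1000 bp was found for 52.4% and 51.8% of H3K4me3 peaks, and a gap over 10000 bp for 19.3% and 19.1%. Seen from H3K4me1, 35.7% and 34.8% of peaks overlapped H3K4me3, and the median gap of the rest was 1797 bp and 1747 bp. Gaps over 10000 bp made up 3.28% and 3.14% in this direction. H3K4me3 peaks far from H3K4me1 were thus common, and H3K4me1 peaks far from H3K4me3 were rare. Among peaks of score 100 or more the median gap from H3K4me3 was 9138.5 bp, and without peaks on input it was 10704.8 bp. From input peaks to H3K4me3 the median gap was 2825.5 bp and 9.18% lay over 10000 bp away.

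**Figure D1:**
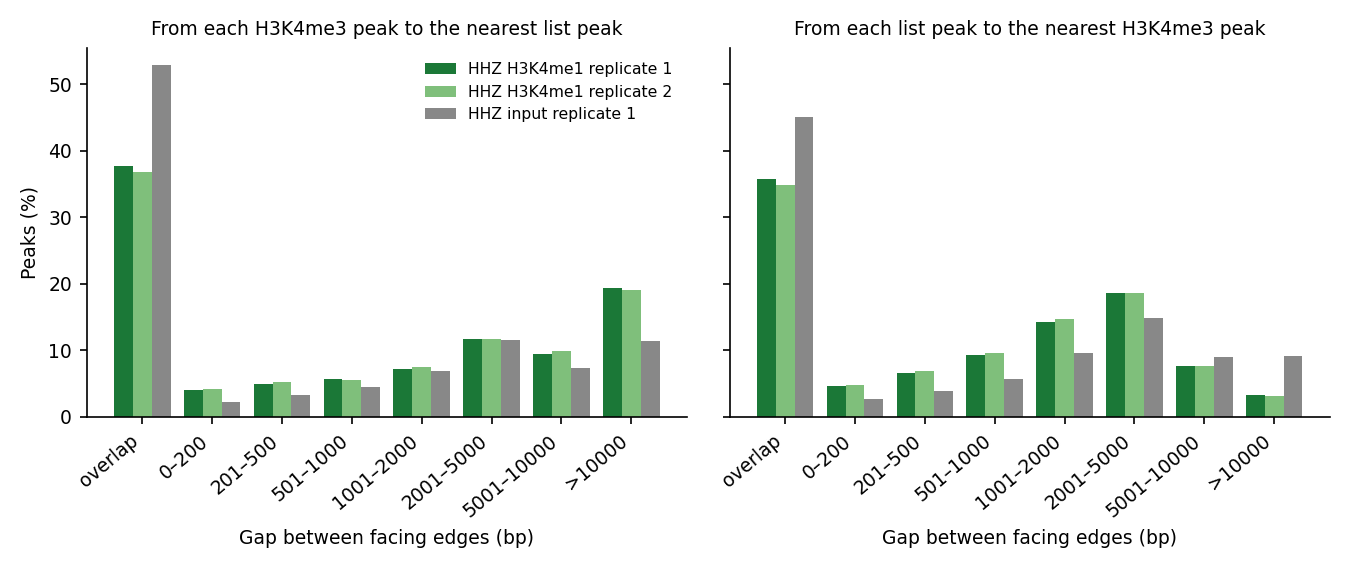
Share of peaks (y axis, %) by the gap between facing edges to the nearest peak of the other list (x axis, bp, unequal steps), from H3K4me3 on the left and to H3K4me3 on the right, for both H3K4me1 replicates and input. The bars for gaps over 10000 bp reach 19.3% from H3K4me3 and 3.28% from H3K4me1 in replicate 1.

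H3K4me1 peaks differed in width, score and company between groups of distance from H3K4me3. Those overlapping H3K4me3 had a median width of 1302 bp and a median score of 111.72 in replicate 1, and 98.5% of them overlapped H3K36me3. Those 0 to 1000 bp away were narrower, at 1077 bp, with 91.6% overlapping H3K36me3. The 665 peaks over 10000 bp away had a median of 888 bp and a score of 75.68, and 54.1% overlapped H3K36me3. Replicate 2 gave 1255.5 bp, 1043 bp and 881 bp for these 3 groups. Input overlap fell along the same series, from 69.1% through 52.7% to 34.1% in replicate 1, and its part in these differences was not tested. A wider peak also has more room to meet another peak. The part of this grouping in the widths and in the overlap with H3K36me3 was not tested either.

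Where H3K4me1 flanked an H3K4me3 peak, it nearly always did so on 1 side. A side counted as flanked when the 1000 bp beyond that edge of the H3K4me3 peak held at least 1 bp of H3K4me1. H3K4me1 flanked 47.6% ± 0.28 (SD, n = 2) of H3K4me3 peaks on 1 side, 8955 peaks in replicate 1 and 8881 in replicate 2. Both sides were flanked in 3.51% ± 0.19, 684 and 633 peaks, and neither side in 48.9% ± 0.47, 9102 and 9227 peaks. Counting intervals were 3.39% to 3.93% and 3.13% to 3.65% for both sides in the replicates. Of all flanked peaks, 93.1% ± 0.31 were flanked on 1 side, 13.6 ± 0.66 for each peak flanked on both. A high share of this kind was not particular to H3K4me1, since it was 88.7% and 89.2% for H3K27ac. It was 64.2% for input, 65.8%, 61.1% and 65.5% for H3K27me3 replicates 1, 2 and 3, and 27.9% for H3K36me3. Left and right were used alike, with 23.7% ± 0.15 flanked on the left only and 23.9% ± 0.12 on the right only. The share on both sides was 1.94% with a window of 500 bp, 7.24% with 2000 bp and 1.48% where H3K4me1 had to fill at least 50% of the window. It was 1.12% among peaks of score 100 or more and 0.741% without peaks on input, where the share on 1 side was 29.8%.

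Over all H3K4me3 peaks, flanking on both sides was rarer than the shares of the single sides would give if they were unrelated. H3K4me1 stood on the left of 27.2% and on the right of 27.4% of peaks, and the product of these shares was 7.46% ± 0.18. The measured share on both sides was 0.471 ± 0.014 of that product. For input this ratio was 1.28, with 21.7% of peaks flanked on both sides. It was 2.07 and 2.01 for H3K27ac, 4.94 and 4.25 for H3K27me3 replicates 1 and 2, 1.22 for replicate 3, and 1.17 for H3K36me3. H3K4me1 was the one list among these with a ratio under 1, in both replicates. With peaks of score 100 or more it was 0.366, and without peaks on input 0.303. The ratio was not computed within groups of H3K4me3 peaks, so it need not hold in each of them. In the 529 peaks with both windows wholly in H3K36me3, 41.8% and 37.8% were flanked on both sides, far above the product over all peaks. These are descriptions of the libraries, since HHZ has 1 H3K4me3 library and no test was made within the cultivar.

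**Figure D2:**
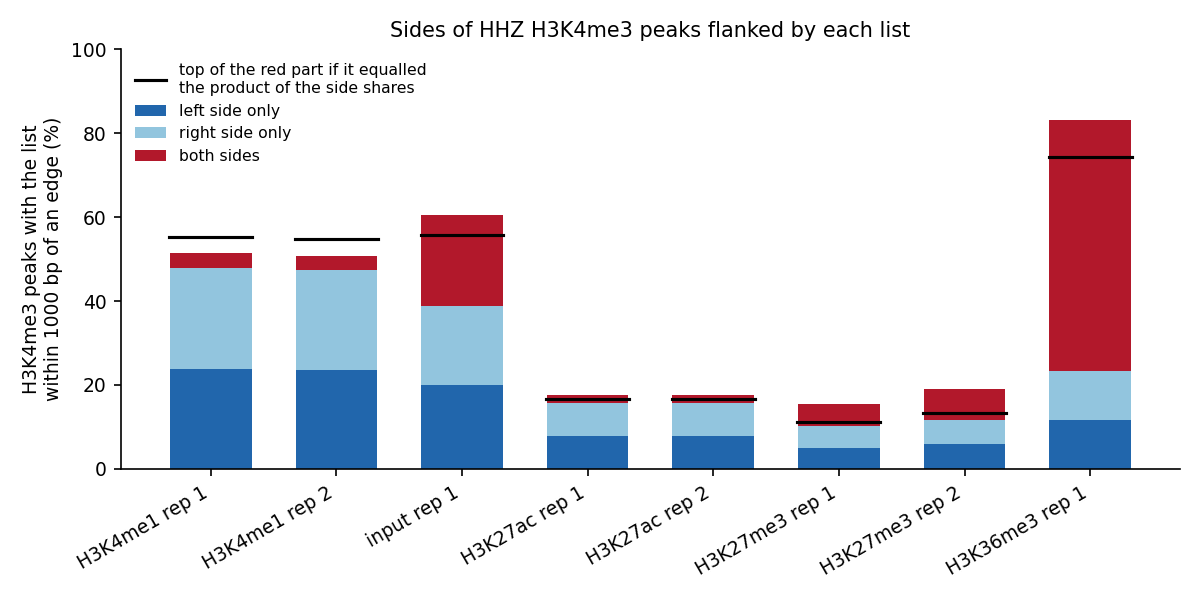
Share of HHZ H3K4me3 peaks (y axis, %) flanked within 1000 bp on the left side only, the right side only or both sides (stacked) by each HHZ list on the x axis. The black line shows where the top of the red part would lie if the share on both sides equalled the product of the side shares: the bars stop below it for H3K4me1 and pass it for the other lists.

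Most H3K4me3 peaks with a flank on 1 side were also overlapped by H3K4me1, counted anywhere in the peak. Of H3K4me3 peaks flanked on 1 side, 69.6% ± 0.56 also overlapped H3K4me1, and 2707 ± 33.9 were flanked without overlap. The same share was 75.9% for input, 67.6% and 67.0% for H3K27ac and 93.3% for H3K36me3. For H3K27me3 it was 54.4%, 55.4% and 86.1% in replicates 1, 2 and 3. Of the peaks flanked on both sides, 53 ± 7.07 lay wholly inside H3K4me1, 515.5 ± 26.2 were covered in part and 90 ± 2.83 were not covered. For input, 56.0% of the peaks flanked on both sides lay wholly inside an input peak, against 8.03% ± 0.63 for H3K4me1.

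The side was reproduced by the replicates. The class was equal in both for 86.9% of H3K4me3 peaks. Of 7705 peaks flanked on 1 side in both, the side was equal for 7679 (99.7%) and opposite for 26. Both sides were flanked in both replicates for 472 peaks, 69.0% of those in replicate 1, and neither side for 8107, or 89.1%. Exchange between 1 side and no side made up most of the disagreement, with 1103 and 981 peaks.

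The classes differed in width, score and company, here taken over peaks with an equal class and side in both replicates. H3K4me3 peaks flanked on 1 side had a median width of 1623 bp and a median score of 453.61. Peaks flanked on both sides were wider, at 1718 bp, with a score of 445.12. Unflanked peaks were narrower and weaker, at 1378 bp and 200.03. H3K36me3 overlapped 99.2% of the peaks flanked on both sides, 98.1% of those flanked on 1 side and 67.8% of the unflanked. H3K27me3 replicate 1 ran the other way, with 5.51%, 5.14% and 18.1%, and replicate 2 gave 6.99%, 6.39% and 23.5%, whereas replicate 3 gave 76.1%, 65.7% and 57.6%. Input overlapped 79.2%, 64.0% and 40.2% of the same classes. Its part in the classes was not tested.

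Along the ranking of H3K4me3 by score, flanking on 1 side rose from 20.8% in the lowest quartile through 44.6% and 61.2% to 64.5% in the highest (replicate 1). Flanking on both sides moved over a smaller range, from 2.62% to 5.04%. By width, flanking on 1 side was highest in the third quartile (59.5%, widths from 1525 bp to 1883 bp) and lower in the widest (51.8%). Replicate 2 gave 20.5% and 64.2% for the ends of the score ranking. Flanking by input on 1 side also rose with score, from 27.3% to 46.7%.

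The peaks of highest score show the classes at single places. The H3K4me3 peak of highest score flanked on 1 side in both replicates was chr6:29656841-29660462, 3.622 kb wide with a score of 3233.06. H3K4me1 began inside its right rim and ran on to position 29662036 in replicate 1 and 29663806 in replicate 2, and H3K36me3 covered the whole H3K4me3 peak. At chr8:20847553-20851499 (score 3215.35) a short H3K4me1 peak of 0.802 kb straddled the right edge in replicate 1, and a second one of 1.555 kb followed after it. The third, chr6:2274052-2278298, was also flanked on the right, by H3K4me1 peaks of 1.293 kb and 1.432 kb. The scores of these were 84.46 in replicate 1 and 92.26 in replicate 2, where the list medians were 93.24 and 91.58.

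H3K4me3 peaks flanked on both sides were a far smaller class than those flanked on 1 side (472 against 7679), with close median scores (445.12 and 453.61). Those of highest score in this smaller class scored below the ones named for 1 side. The first was chr3:33103718-33107446 (score 1929.92), with H3K4me1 peaks of score 50.2 and 58.05 at its left and 64.46 at its right in replicate 1, all near the limit of 50. At chr6:401815-405301 the sides were unequal. Its left H3K4me1 peak was 1.279 kb wide with a score of 78.59, and its right one 5.214 kb wide with a score of 708.47. H3K4me1 covered 55.1% of this H3K4me3 peak in replicate 1 and 37.9% in replicate 2. At chr6:27344819-27348001 the sides were nearly even, at 1.224 kb and 1.162 kb, and the coverage of the peak was 10.6% and 11.1%.

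Some of the strongest H3K4me3 peaks had no H3K4me1 near them. At chr4:27076580-27082274, 5.695 kb wide with a score of 3149.98, the nearest H3K4me1 edge was 29874 bp away in replicate 1 and 30031 bp in replicate 2. Input peaks covered 82.0% of it. The gap was 8192 bp in both replicates at chr10:19928875-19934010, where H3K27me3 covered 59.1% and 69.7% of the H3K4me3 peak in its replicates 1 and 2 and input covered none. At chr1:28016855-28021631 the gaps were 28491 bp and 26667 bp, and input covered 95.7%.

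In H3K4me3 peaks with H3K36me3 on 1 side only, H3K4me1 flanks lay mostly on that side. This measure was added after the values were seen. In 2898 of 18741 H3K4me3 peaks H3K36me3 covered at least 50% of the 1000 bp on 1 side and none on the other. It lay to the left in 1444 and to the right in 1454. H3K36me3 overlapped 86.5% and 86.8% of all H3K4me1 peaks in the replicates, and the other side was chosen to hold none of it. The part of this choice in the values below was not tested. H3K4me1 flanked the H3K36me3 side of 62.9% ± 0.29 (SD, n = 2) of these peaks and the other side of 2.98% ± 0.37. Among those flanked by H3K4me1 on 1 side, 98.2% ± 0.27 had it on the H3K36me3 side, 1769 of 1804 in replicate 1 and 1765 of 1793 in replicate 2. Input leaned the same way less steeply, with 54.1% against 27.4%, and 79.6% of its flanks on 1 side were on the H3K36me3 side. H3K27ac had 12.5% against 7.80% in replicate 1. H3K27me3 leaned to the other side, with 3.31% against 11.2% in replicate 1, 4.62% against 14.2% in replicate 2 and 32.0% against 40.6% in replicate 3.

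The amount of H3K36me3 around a peak went with the flanking. Where H3K36me3 reached into neither side (3156 H3K4me3 peaks), 93.1% and 93.5% were unflanked by H3K4me1 in the replicates. Where at least 1 bp of it reached into both sides (11230 peaks), 60.3% and 59.9% were flanked on 1 side and 5.48% and 5.06% on both. Input left 55.9% unflanked in the former group and 34.9% in the latter. Flanking on both sides was far more frequent where H3K36me3 filled more of both windows, a split added after the values were seen. In the 1340 H3K4me3 peaks with at least 50% of both windows in H3K36me3, H3K4me1 flanked both sides of 27.3% and 25.1% and 1 side of 51.9% and 53.1%. In the 529 peaks with both windows wholly in H3K36me3, these were 41.8% and 37.8% on both sides and 44.6% and 45.9% on 1 side. Input rose too, flanking both sides of 24.7% of the 11230 peaks, 37.0% of the 1340 and 40.5% of the 529. It lay above H3K4me1 in the 11230 and in the 1340 peaks, and close to H3K4me1 in the 529.

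Profiles from the edge outwards gave the same picture base by base. Over all H3K4me3 edges, H3K4me1 covered 12.9% of positions 500 bp inside the peak, 18.4% at the edge and 20.1% at 500 bp outside in replicate 1, its highest point, and 13.4% at 5000 bp. Replicate 2 gave 12.3%, 17.8%, 19.8% and 13.3%. Input was highest inside, at 45.5% at 700 bp from the edge, and fell to 26.6% at 500 bp outside. Inside positions were read only in peaks wide enough to hold them, 16240 at 500 bp and 11379 at 700 bp. Positions outside used all 18741 peaks, so inside and outside values rest on different sets of peaks. For the 2898 peaks with H3K36me3 on 1 side, H3K4me1 on that side climbed to 47.9% at 400 bp outside in replicate 1 and 47.7% in replicate 2. On the other side it was 0.932% and 0.587% at the edge, 2.38% and 2.10% at 1000 bp, and 9.87% and 10.0% at 5000 bp. Input on that other side was 22.0% at the edge and 18.8% at 5000 bp.

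**Figure D3:**
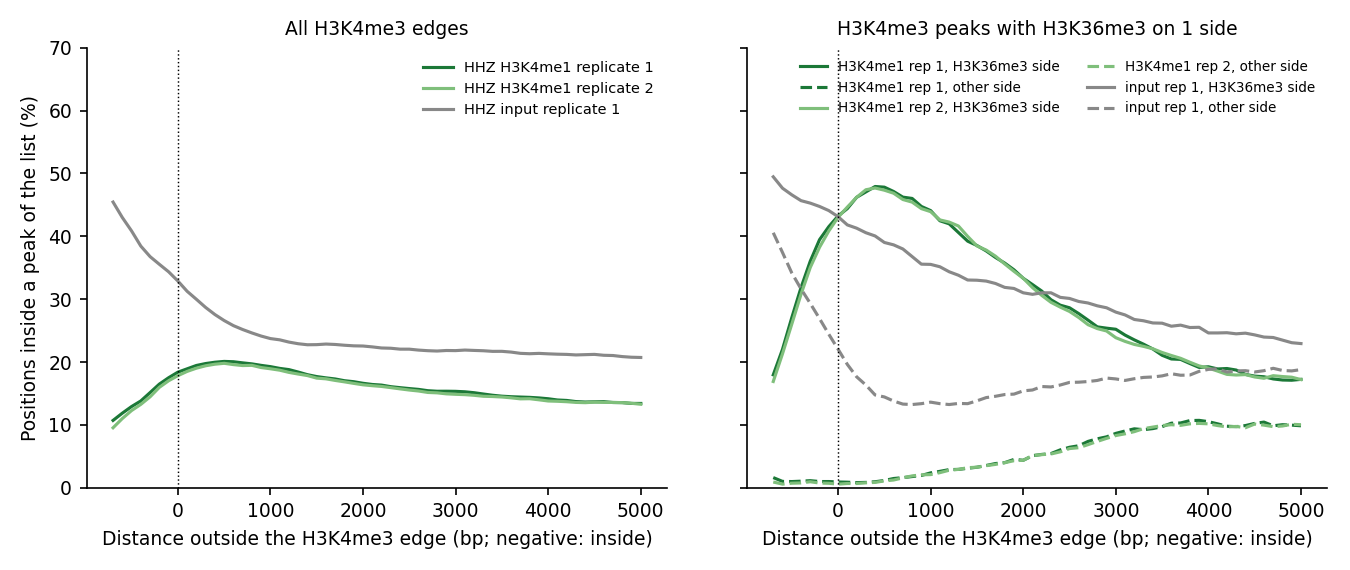
Share of positions inside a peak of each list (y axis, %) by distance outside the H3K4me3 edge (x axis, bp, negative inside), over all edges on the left and for 2898 H3K4me3 peaks with H3K36me3 on 1 side on the right, where solid lines are the H3K36me3 side and dashed lines the other. H3K4me1 is highest 400 bp outside the edge on the H3K36me3 side, at 47.9% in replicate 1, and at 0.932% on the edge of the other side.

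Most H3K36me3 domains held H3K4me3, and whether most of those also held H3K4me1 depended on the peaks and domains admitted. A mark counted as inside when the midpoint of a peak lay in the domain, which held for 83.7% of H3K4me3 peaks, 79.4% and 79.7% of H3K4me1 peaks and 48.4% of input peaks. Of 16344 domains, 55.5% ± 0.32 (SD, n = 2) held both marks, 9114 with replicate 1 and 9041 with replicate 2. H3K4me3 alone was found in 36.8% ± 0.32 (5980 and 6053), H3K4me1 alone in 2.65% ± 0.048 (439 and 428), and neither in 5.00% ± 0.048 (811 and 822). Removing peaks on input also took out the H3K36me3 domains on input and left 5757 domains. Of these, 34.0% held both marks and 51.7% H3K4me3 alone. Before removal, input overlapped 78.2% of domains with both marks and 49.8% of those with H3K4me3 alone (replicate 1). The part of the removed domains in this shift was not tested. Among peaks and domains of score 100 or more, both marks were in 37.6%, H3K4me3 alone in 52.8% and H3K4me1 alone in 1.75%. Under both settings domains with H3K4me3 alone thus outnumbered those with both marks. The replicates gave an equal class for 90.7% of domains. These were 8392 with both marks, 5331 with H3K4me3 alone, 362 with H3K4me1 alone and 745 with neither. A peak list from a whole panicle cannot tell apart marks that share a cell from marks in different cells of the tissue.

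Domain length differed between the classes. Median widths were 4229.75 bp ± 8.84 for domains with both marks, 2531.5 bp ± 16.3 with H3K4me1 alone, 2197.75 bp ± 10.3 with H3K4me3 alone and 1481 bp ± 4.24 with neither. In the shortest quartile (426 bp to 2216 bp), 3.99% of domains held both marks with replicate 1 and 74.7% held H3K4me3 alone. In the next quartiles both marks were in 45.0% and 80.9%, and in the longest (4563 bp to 43465 bp) in 93.2%, with H3K4me3 alone in 4.28%. Replicate 2 gave 4.04%, 44.6%, 79.6% and 93.1% for both marks. A longer domain has more room for the midpoint of any peak. Input was not counted by domain length here, so the part of this room in the rise was not tested. The mean number of H3K4me1 peaks per domain grew from 0.0884 to 2.26 between the shortest and longest quartiles, while that of H3K4me3 went from 0.791 to 1.08. The median H3K36me3 score was 2995.05 in domains with both marks and 535.78 in those with H3K4me3 alone. It was 400.17 in domains with H3K4me1 alone, which were wider than those with H3K4me3 alone, and 120.54 in domains with neither.

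**Figure D4:**
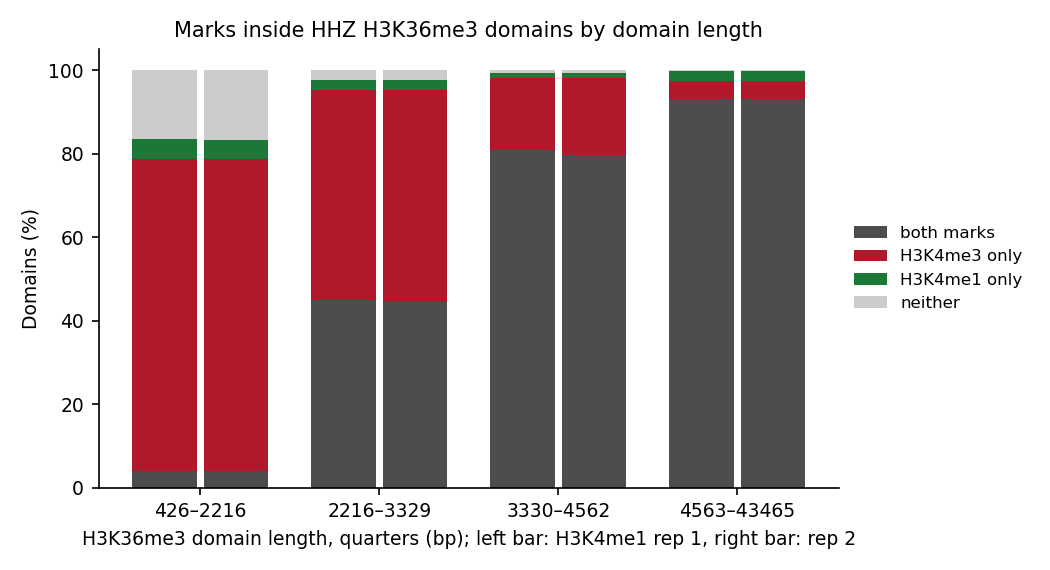
Share of H3K36me3 domains (y axis, %) with both marks, H3K4me3 alone, H3K4me1 alone or neither, by quartile of domain length (x axis, bp), with H3K4me1 replicate 1 in the left bar and replicate 2 in the right bar of each pair. Domains with both marks go from 3.99% in the shortest to 93.2% in the longest with replicate 1.

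In most domains with both marks and at least 3 peaks, H3K4me3 lay outermost at 1 end and H3K4me1 at the other. This held for 90.6% of 3989 such domains with replicate 1 and 91.4% of 4077 with replicate 2. With input in place of H3K4me1 it held for 53.9% of 2039 domains, and with H3K27ac for 48.3% and 46.6%. Domains with 1 peak of each mark, 5125 and 4964, were left out of these shares because their ends hold 1 of each by construction. Over all domains with both marks, H3K4me3 was outermost at both ends in 1.92% and 1.97%, and H3K4me1 in 2.17% and 1.90%. The simplest orders were evenly split by direction, with 2575 and 2470 domains holding H3K4me3 and then H3K4me1 from left to right, and 2550 and 2494 the reverse. H3K4me3 followed by a pair of H3K4me1 peaks was found in 1119 and 1151 domains, and the mirror order in 1051 and 1114.

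The order of 3 peaks separated H3K4me1 from the background lists. Of domains with 1 H3K4me3 and 2 H3K4me1 peaks, H3K4me3 lay in the middle in 3.43% (77 of 2247) with replicate 1 and 2.79% (65 of 2330) with replicate 2. With 2 input peaks in place of H3K4me1 it lay in the middle in 45.9% (621 of 1352), and with 2 H3K27ac peaks in 51.9% and 47.5%. Domains with 2 H3K4me3 and 1 H3K4me1 peak were few. In these H3K4me1 lay in the middle in 55.2% (107 of 194) and 58.9% (109 of 185). Few of the triples thus had H3K4me3 between H3K4me1 peaks, and most of those with a pair of H3K4me3 peaks had H3K4me1 between them.

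Domains with exactly 1 peak of each mark showed where along the domain they sat. There were 5044.5 ± 114 such domains (SD, n = 2) with a median width of 3631.75 bp. H3K4me3 was the left mark in 50.2% with replicate 1 and 49.8% with replicate 2. Measured from the end nearer to H3K4me3, the H3K4me3 midpoint lay at a median of 27.0% of the domain length and the H3K4me1 midpoint at 65.2% ± 0.30. By this rule the H3K4me3 midpoint cannot pass the middle, while that of the other list can. The rule thus bears on this contrast and on the shares inward of H3K4me3 and past the middle, for every list. H3K4me1 lay inward of H3K4me3 in 98.1% ± 0.015 and past the middle of the domain in 83.3% ± 0.52. One input peak in place of H3K4me1 lay inward in 76.2% and past the middle in 42.1%, and one H3K27ac peak in 62.6% and 25.9% with replicate 1. A measure that treats both marks alike took each to its own closest end. H3K4me3 was nearer to its closest end than H3K4me1 was to its own in 62.3% ± 0.045 of the domains.

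The edges of both marks were also measured against the ends of these domains, as separate medians. The share of a domain left free by both marks was not computed. The outer edge of H3K4me3 stood a median of 129 bp ± 2.83 from its end of the domain, and that of H3K4me1 456 bp ± 5.66 from the far end. The marks overlapped in 66.4% ± 0.80 of the domains. Where they did not, the gap was 467 bp ± 15.6 at the median. Midpoints were 1345.5 bp ± 7.07 apart.

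**Figure D5:**
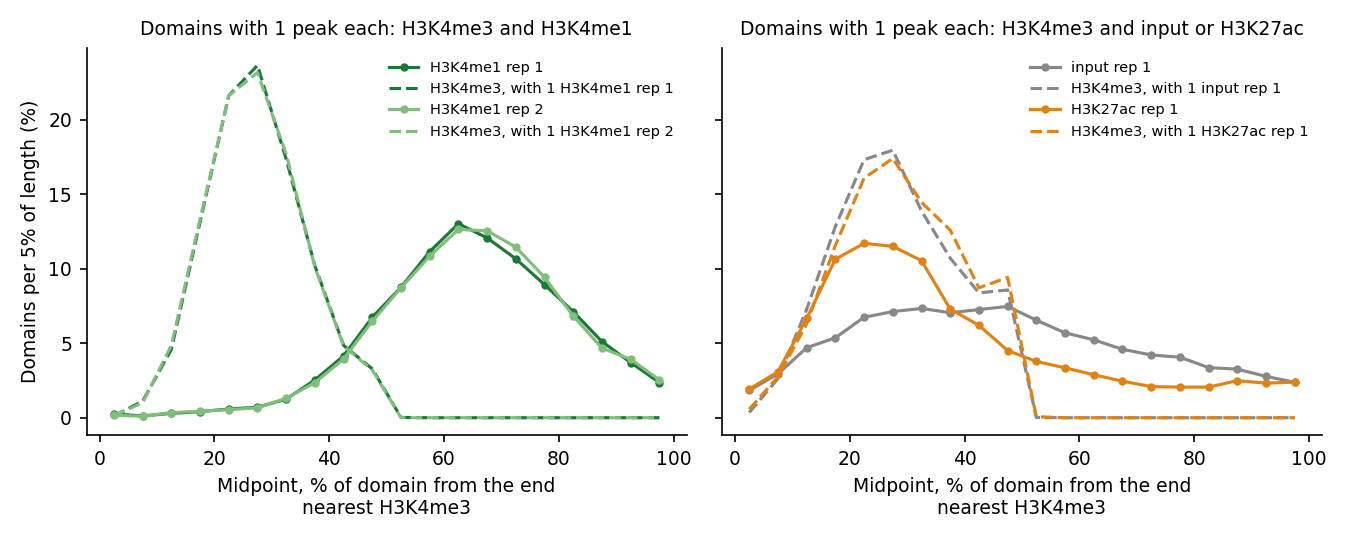
Position of peak midpoints (x axis, % of domain length from the end nearest H3K4me3) in H3K36me3 domains with exactly 1 H3K4me3 peak and 1 peak of the other list, as the share of domains per 5% step (y axis, %); dashed lines are H3K4me3 and solid lines the other list. H3K4me1 has its median at 65.2% of the length over both replicates, whereas input lies at 44.7% and H3K27ac replicate 1 at 32.0%. By the choice of end, H3K4me3 cannot lie past the middle.

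The widest domains with both marks extended this order. The 3 widest held a single H3K4me3 peak each, at 1 end, and 11 to 18 H3K4me1 peaks over the rest. At chr1:335155-369658, 34.504 kb wide, the H3K4me3 peak ran from 335339 to 337052 at the left end, and 11 and 12 H3K4me1 peaks in the replicates covered 49.8% and 49.3% of the domain. The first of them began at 336720 in replicate 1, inside the H3K4me3 peak, and the last ended past the domain at 370142. At chr6:17939492-17971314 the H3K4me3 peak was at the right end, and 14 and 15 H3K4me1 peaks covered 67.4% and 64.1%. At chr2:15932839-15976303 H3K4me3 covered 3.05% of the domain, and H3K4me1 54.1% and 61.7% from 13 and 18 peaks.

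Domains with H3K4me3 alone were mostly short, but not in every case. The widest with both replicates, chr3:29707627-29722473, spanned 14.847 kb with its H3K4me3 peak of 1.691 kb at the right end and no base of H3K4me1, input or H3K27me3 replicates 1 and 2. At chr8:26518607-26527501, 8.895 kb wide, H3K4me3 lay at the left end and H3K27me3 covered 88.0% and 87.1%. At chr1:30396132-30404050, 7.919 kb wide, input covered 51.6%. Of all domains with H3K4me3 alone, 6.10% and 5.60% were still touched by an H3K4me1 peak whose midpoint lay elsewhere, and 16.0% and 15.5% had H3K4me1 within 1000 bp. Input overlapped 49.8% of them against 78.2% of domains with both marks in replicate 1, and H3K27me3 replicate 1 overlapped 11.1% against 6.21%.

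Domains with H3K4me1 alone were a small class, and its overlap with H3K27me3 differed between the H3K27me3 replicates. With replicate 1, H3K27me3 replicate 1 overlapped 14.6% of them, replicate 2 overlapped 15.7% and replicate 3 42.1%, against 6.21%, 7.65% and 71.7% of domains with both marks and 11.1%, 15.2% and 61.7% of domains with H3K4me3 alone. H3K4me3 touched 4.33% and 3.74% of them and lay within 1000 bp of 18.7% in each replicate. The widest, chr2:6277980-6301176, spanned 23.197 kb and held 1 H3K4me1 peak in each replicate, of 0.793 kb and 0.777 kb, and these did not overlap each other (6298376 to 6299168 and 6297483 to 6298259). At chr3:1278640-1298222, 19.583 kb wide, 6 H3K4me1 peaks in each replicate covered 43.1% and 44.4%. At chr2:18348181-18366654 4 and 5 peaks covered 22.5% and 35.8%.

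In JZ1560, flanking on both sides was more frequent, and the number of libraries did not allow a call. Each JZ1560 H3K4me1 library was set against both JZ1560 H3K4me3 libraries, and the 2 values were averaged. Flanking on both sides reached 9.18% ± 0.65 (SD, n = 2) in JZ1560 and 3.51% ± 0.19 in HHZ, a difference of -5.67 percentage points for HHZ minus JZ1560. Without peaks on input the difference was -1.71 points. Both HHZ libraries lay below both JZ1560 libraries. An exact permutation test over the libraries (two-sided) had p = 0.33, which is the smallest value that 6 arrangements can give. JZ1560 H3K4me1 peaks were also wider, with medians of 3331 bp and 3500 bp, and the part of width in the difference was not tested. The ratio of the share on both sides to the product of the side shares was 0.576 to 0.745 over the 4 pairs of JZ1560 libraries, and 1.47 and 1.35 for JZ1560 input.

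The HHZ classes were also read against JZ1560 H3K4me1, on the coordinates that the rice lists share. Over all HHZ H3K4me3 peaks, JZ1560 H3K4me1 replicates 1 and 2 flanked 63.5% and 64.0% on 1 side and 10.3% and 11.1% on both. They left 26.3% and 24.9% unflanked, so most peaks of any class were flanked. JZ1560 H3K4me1 flanked 98.4% and 98.7% of the H3K4me3 peaks that were flanked on 1 side in HHZ, again on 1 side in 89.6% and 88.9%. Of the 8107 H3K4me3 peaks unflanked in HHZ, it flanked fewer, 43.0% and 45.7%. Among the 472 flanked on both sides in HHZ, it flanked both sides of 90.9% and 93.2%. JZ1560 H3K4me1 overlapped 46.4% and 49.7% of the 5331 HHZ domains with H3K4me3 alone, against 98.9% and 99.1% of those with both marks. It overlapped nearly the same share, 45.9% and 49.4%, of the 745 HHZ domains with neither mark. Of the 362 domains with H3K4me1 alone, JZ1560 H3K4me3 overlapped 21.8% and 36.5%, against 39.7% and 64.6% of domains with neither mark and 90.9% and 95.9% of those with H3K4me3 alone. Cultivar, list depth and peak width cannot be told apart in these values.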

How the data were processed

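Peaks were called with MACS for each library, per the file headers, and each list holds a start, an end and a score as the authors deposited it. FastQC, BWA, TopHat2 and HTSeq appear, with no role, in the processing notes of the submitters. Not given in the sources used here are the genome build, the peak threshold and the control of each list. Read depth is unknown, and a shallower library yields fewer and narrower peaks, so an absent peak can be a missed one. Scores were used for ranking, filtering and describing the peaks of each list.

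Overlapping peaks were merged. Overlap meant at least 1 bp, the flank window was 1000 bp, and domains were merged H3K36me3 peaks. The reference length, 374 Mb, was the sum of the furthest peak ends. Coordinates are those of the files, counted from 1. Values were computed per H3K4me1 library and given with the SD over 2, using Python 3.11.15, NumPy 2.4.6 and SciPy 1.17.1, and the interval code was tested on simulated data. The one test, between cultivars, was an exact two-sided permutation test over libraries. Named regions were, on chromosomes 1 to 12 and with an equal class in both replicates, the 3 H3K4me3 peaks of highest score per flanking class and the 3 widest domains per class. The comparison, the lists and the rules were chosen with earlier results of these data known. The gene table at hand is on a named assembly that the files do not name, so no genes or sequences are given. Samples of wheat, RNA and re-sequencing were not used here. Alternatives were a score of 100 or more, removal of peaks on input, joining of peaks under 500 bp apart, equal list lengths, other windows and membership rules, and each replicate left out.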

Additional observations from a re-analysis of the deposited data

How the results depend on the processing

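Restricting every list to peaks of score 100 or more moved each share: overlap of H3K4me3 peaks to 24.3%, flanking on both sides to 1.12%, on 1 side to 32.8% and on neither to 66.1%, domains with both marks to 37.6%, with H3K4me3 alone to 52.8% and with H3K4me1 alone to 1.75%, H3K4me3 nearer an end to 71.0% of domains with 1 peak each, and the median gap to 9138.5 bp. Removing peaks that overlap an input peak left 8843 H3K4me3 peaks (47.2%), 5757 domains (35.2%) and 9453 and 9545 H3K4me1 peaks. The same series of values was then 20.6%, 0.741%, 29.8%, 69.5%, 34.0%, 51.7%, 3.22%, 62.4% and 10704.8 bp. With equal numbers of peaks it was 35.4%, 3.15%, 45.7%, 51.2%, 53.5%, 38.8%, 2.47%, 63.0% and 4572.25 bp. Joining peaks under 500 bp apart gave 37.9% for overlap, 48.1% for 1 side, 48.3% for neither side, 56.6% and 2.01% for domains with both marks and with H3K4me1 alone, and 66.4% for H3K4me3 nearer an end. The other values moved by less than the SD over the replicates.

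Asking for at least 50% of the H3K4me3 peak put the overlap at 6.23%. For both sides, 1 side and neither side, a window of 500 bp gave 1.94%, 43.2% and 54.8%, a window of 2000 bp gave 7.24%, 51.4% and 41.4%, and filling at least 50% of the window gave 1.48%, 38.3% and 60.2%. Counting a mark as inside a domain by 1 bp gave 57.8%, 35.1% and 2.86% for both marks, H3K4me3 alone and H3K4me1 alone, and 56.4% for H3K4me3 nearer an end. By 50% of its peak, these moved by less than the SD. Leaving out either H3K4me1 replicate leaves the value of the other, which cannot differ from the mean of 2 by more than their SD and so says nothing of stability: overlap lay at 36.7% to 37.6%, the gap at 4143 bp to 4201 bp, both sides at 3.38% to 3.65%, 1 side at 47.4% to 47.8% and neither at 48.6% to 49.2%.

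The ratio of both sides to the product of the side shares, and the share of flanks on the H3K36me3 side, were recomputed after the data were seen. The ratio stayed between 0.303 and 0.481 and the share between 97.7% and 99.2% over score, input, joining, equal numbers and single replicates.

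With the replicate block, pairing libraries of equal number across cultivars, the difference of -5.67 points had p = 0.5 by exact sign flips, the smallest that 4 sign flips allow here. The labels give no shared batch behind the numbers. The difference kept its sign from -7.69 points (score of 100 or more) to -1.71 points (without peaks on input), and without 1 library at a time from -6.13 to -5.21 points. No setting could pass a threshold with these numbers of libraries. Depth, unknown here, limits the classes defined by an absent H3K4me1 peak.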

Other observations

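Neighbouring H3K4me3 peaks were set side by side when each was flanked by H3K4me1 on 1 side, equal in both replicates. This measure was chosen after the values were seen. Of 3388 such neighbouring pairs, 44.5% had H3K4me1 in the same direction, 28.2% on the sides facing away from each other and 27.3% on the sides facing each other. Arrangements changed with the gap between the H3K4me3 peaks. At gaps of 1001 bp to 2000 bp, 117 of 187 pairs (62.6%) faced away, 64 faced each other and 6 ran in the same direction. At gaps of 2001 bp to 5000 bp, 28.1% of 751 pairs faced away and 41.0% ran in the same direction, and at 5001 bp to 10000 bp these were 19.8% and 51.5% of 1026 pairs. At gaps up to 1000 bp, 77 of 127 pairs faced away, 24 faced each other and 26 ran in the same direction. There an H3K4me1 peak in the gap lies within the windows of both H3K4me3 peaks, so the rule itself bears on these counts. At gaps of 1001 bp to 2000 bp both windows still overlap or meet and together fill the gap. An H3K4me1 peak in such a gap can reach both windows, which leaves little room for the same direction. The rule thus bears on those counts too.

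Flanking also varied between chromosomes. Flanking on 1 side, as the mean of the H3K4me1 replicates, was lowest on chromosome 11 at 41.4% of H3K4me3 peaks and highest on chromosome 2 at 51.0%. Flanking on both sides went from 2.17% on chromosome 11 to 4.52% on chromosome 6, and unflanked peaks from 45.2% on chromosome 3 to 56.5% on chromosome 11.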
